A study of Mus musculus with 6 samples.

Results

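The genes described here are 56 genes of DNA replication and mitosis, measured in RNA of whole mouse kidneys. They were listed by symbol, and all 56 matched a row of the count table, which holds 55401 Ensembl gene IDs. By their textbook roles, 27 act at the start of the cycle and in DNA synthesis (S phase genes) and 29 act in mitotic entry, mitosis and cell separation (G2/M genes). A filter on low counts left 19197 genes for testing, among them 55 of the 56. Cdc25c was the member left out. The study compared whole kidneys of control mice with those of mice with diabetic kidney disease (DKD), 3 libraries a group, with histone-modifying enzymes as its subject. The labels give the genotype only as Control or DKD. The sources used here do not give strain, age, sex or how the diabetes was brought about. Nothing in the labels ties each library to an animal of its own, and the p-values then measure the scatter of 6 libraries, some of which may be technical.

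Cells that are about to copy their DNA load rings of MCM2 to MCM7, the core of the replicative helicase, onto origins, and then switch the helicase on, bring in polymerases with their sliding clamp PCNA, and make deoxynucleotides. After replication, CDK1 with B-type cyclins drives entry into mitosis, the spindle checkpoint holds back the anaphase-promoting complex until chromosomes are attached, and kinesins and actin-binding proteins separate the daughter cells. Kidney tubule cells divide rarely in the healthy adult and can re-enter the cycle after injury. E2F factors are known to bind promoters of many S phase genes, and the DREAM and MuvB complexes bind promoters of many G2/M genes through a short element called CHR.

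Many S phase and G2/M genes are known to be bound in this way, and the choice of genes did not use promoter letters. Promoter windows were therefore read from RefSeq (build GRCm38.p6), from 250 bases before to 50 bases after each gene's start. The counts were made on GRCm39, so these coordinates are not those of the count table. Windows were found for 46 members. Both strands were searched for the E2F letters TTCCCGC or TTGGCGC, for the CHR letters TTTGAA or TTCGAA, and for CCAAT. In the following windows, shown because they belong to the 3 S phase and the 3 G2/M genes with the smallest p-values among members with 1 window and no overlap between groups, plus Pcna, capitals mark the E2F letters in the S phase genes and the E2F and CHR letters in the G2/M genes. They lie at chr1:20820263-20820562 (minus strand, Mcm3), chr16:93883651-93883950 (plus strand, Chaf1b), chr8:75109259-75109558 (plus strand, Mcm5), chr10:69352863-69353162 (minus strand, Cdk1), chr11:99024140-99024439 (minus strand, Top2a), chr2:118597961-118598260 (plus strand, Bub1b) and chr2:132253131-132253430 (minus strand, Pcna).
Mcm3: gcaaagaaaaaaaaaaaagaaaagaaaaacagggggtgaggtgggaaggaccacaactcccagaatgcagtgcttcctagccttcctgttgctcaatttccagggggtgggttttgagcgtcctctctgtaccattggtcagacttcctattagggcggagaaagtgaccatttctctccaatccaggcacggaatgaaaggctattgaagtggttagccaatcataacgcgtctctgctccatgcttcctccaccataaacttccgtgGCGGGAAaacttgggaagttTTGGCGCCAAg
Chaf1b: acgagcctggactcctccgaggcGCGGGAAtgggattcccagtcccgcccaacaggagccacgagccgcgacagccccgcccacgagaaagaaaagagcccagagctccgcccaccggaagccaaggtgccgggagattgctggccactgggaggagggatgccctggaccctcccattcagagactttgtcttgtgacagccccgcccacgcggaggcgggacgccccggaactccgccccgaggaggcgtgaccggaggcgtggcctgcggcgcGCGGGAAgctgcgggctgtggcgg
Mcm5: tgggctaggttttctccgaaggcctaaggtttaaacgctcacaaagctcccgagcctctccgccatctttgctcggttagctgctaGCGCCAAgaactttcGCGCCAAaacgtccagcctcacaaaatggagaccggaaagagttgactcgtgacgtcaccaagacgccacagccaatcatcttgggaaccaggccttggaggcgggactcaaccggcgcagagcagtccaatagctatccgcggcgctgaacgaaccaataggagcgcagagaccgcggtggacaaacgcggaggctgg
Cdk1: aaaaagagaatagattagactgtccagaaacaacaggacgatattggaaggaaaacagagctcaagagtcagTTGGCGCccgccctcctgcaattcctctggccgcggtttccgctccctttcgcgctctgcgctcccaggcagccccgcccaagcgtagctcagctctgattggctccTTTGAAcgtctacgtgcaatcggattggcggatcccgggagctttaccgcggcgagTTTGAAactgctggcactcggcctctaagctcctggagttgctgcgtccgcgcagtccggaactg
Top2a: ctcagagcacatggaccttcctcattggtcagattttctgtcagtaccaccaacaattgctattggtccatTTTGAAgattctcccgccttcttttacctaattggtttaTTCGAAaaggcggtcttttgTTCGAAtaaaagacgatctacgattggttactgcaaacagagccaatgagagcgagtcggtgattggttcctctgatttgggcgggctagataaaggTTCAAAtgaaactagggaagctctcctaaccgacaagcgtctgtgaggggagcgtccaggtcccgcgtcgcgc
Bub1b: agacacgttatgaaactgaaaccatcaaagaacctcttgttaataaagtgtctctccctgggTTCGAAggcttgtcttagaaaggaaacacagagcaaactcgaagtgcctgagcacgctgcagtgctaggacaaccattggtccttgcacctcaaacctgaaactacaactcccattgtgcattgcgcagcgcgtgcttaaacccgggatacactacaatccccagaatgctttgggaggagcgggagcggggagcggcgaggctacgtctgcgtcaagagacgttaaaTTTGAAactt
Pcna: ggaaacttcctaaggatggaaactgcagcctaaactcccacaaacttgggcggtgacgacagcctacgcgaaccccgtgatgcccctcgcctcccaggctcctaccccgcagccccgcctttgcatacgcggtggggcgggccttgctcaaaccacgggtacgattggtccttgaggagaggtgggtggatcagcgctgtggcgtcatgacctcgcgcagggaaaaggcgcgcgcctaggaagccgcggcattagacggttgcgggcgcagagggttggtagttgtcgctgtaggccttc

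Shares are of genes with at least 1 window. The median share of G and C bases was 57.5% in S phase and 59% in G2/M windows, against 52.7% in all windows. Its part in the shares below was not tested. The E2F letters were found for 12 of 22 S phase genes (54.5%) and 3 of 24 G2/M genes (12.5%), against 7.79% of 27025 genes of the table. In Mcm3 they occurred 3 times, at positions that partly overlap because the letters there read alike on both strands. The CHR letters were found for 19 of 24 G2/M genes (79.2%) and 6 of 22 S phase genes (27.3%), against 21.7% of the table's genes. Top2a held 4 such matches and Cdk1 held 2, together with 1 E2F match. Within 50 bases of the start, 18 of the 24 G2/M genes had a CHR match, against 6.12% of all genes with a window. An E2F match lay within 50 bases of the start for 8 of the 22 S phase genes, against 3.01% of all genes with a window. CCAAT was found for 59.1% of S phase and 83.3% of G2/M genes, against 41.1% of the table's genes. In genes outside the list, grouped by role, the E2F letters were found for 52.6% of 38 other replication genes and 26.9% of 52 other mitosis genes. The CHR letters were found for 15.8% and 71.2% of them. Pcna, whose window is printed last, held neither set of letters. A match here is a run of letters and not a measured binding site.

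**Figure D1:**
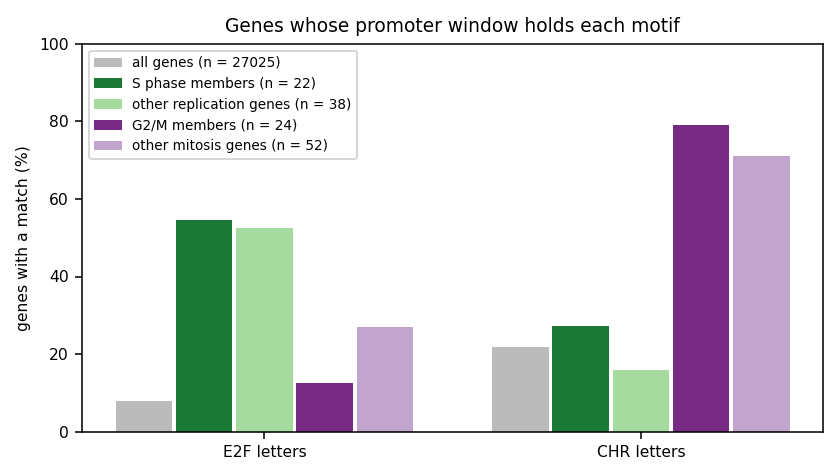
Percent of genes (vertical axis) with a promoter window that holds the E2F letters or the CHR letters on either strand, for all genes of the RefSeq table, S phase and G2/M members and the other replication and mitosis genes. The E2F letters are found for 54.5% of S phase and 12.5% of G2/M genes, and the CHR letters for 27.3% and 79.2%.

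The libraries held 64816622 to 77417638 counts, and a count of 0 allows a true level of up to 3 counts, or 0.0353 to 0.0505 CPM (counts scaled to library size with TMM factors). That floor covers counting error only. All 10 kidney epithelial markers were detected in every library, at a summed 10900 to 14200 CPM. DKD replicate 1 stood apart in its liver transcripts. Its 18 hepatocyte markers summed to 5560 CPM, against 571 to 776 CPM in the other libraries, and Alb (albumin) alone was at 2320 CPM, against 7.20 to 14.7 CPM. Ahsg, Mup3, Serpina3k and Tat were at 0 in all libraries but this one. The main counts below are therefore also given without DKD replicate 1.

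Fitted levels of replication and mitosis genes lay above the controls in the DKD kidneys across the whole list, although no single gene passed the test, and the median difference was larger for G2/M than for S phase genes. The fitted level was higher in DKD for all 55 members tested, against 10059 of 19197 genes. The median log2 difference, DKD minus control, was 1.09 over the members (range 0.02 to 2.08) and 0.02 over all genes tested. Every DKD library lay above every control library for 38 of 55 members (69.1%), which was the case for 13.8% of all genes. No member had every DKD library below the controls, against 11.5% of all genes. A gene whose groups are set apart in this way is called separated below. With DKD replicate 1 left out, 39 of 55 members had the other DKD libraries above all controls and 0 below, against 27.4% and 23.6% of all genes. In each role the number of separated members was the same without that library, except at the fork, where it was 3 in place of 2. Leaving out a DKD library cannot lower such a count, so these counts cannot show whether the separation depends on it. Over all genes the upward share rose from 13.8% to 27.4%.

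The quasi-likelihood test of edgeR with Benjamini-Hochberg adjustment over all genes called 0 of 19197 genes (0%) at an adjusted p of 0.05. Over all genes the lowest adjusted p reached 0.0721, and among members it reached 0.103. At an unadjusted p under 0.05, 32 of 55 members were higher and 0 lower, against 12.2% and 7.05% of all genes. DESeq2 called 26 members higher and 0 lower, against 6.25% and 2.90% of all genes. Limma-voom with sample quality weights called 25 higher and 0 lower, against 9.94% and 7.75% of all genes, and without the weights it called 0 genes. Without DKD replicate 1, edgeR called 17 members higher and 0 lower, against 9.67% and 5.84% of all genes. The 17 members called without DKD replicate 1 were also called by DESeq2 and weighted limma-voom, 8 of them S phase and 9 G2/M genes. The fits share libraries and are not independent, and the share of all genes called in all 3 was not counted. Fewer cells of a type and less RNA per cell cannot be told apart in these whole kidneys, and neither can their opposites.

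**Figure D2:**
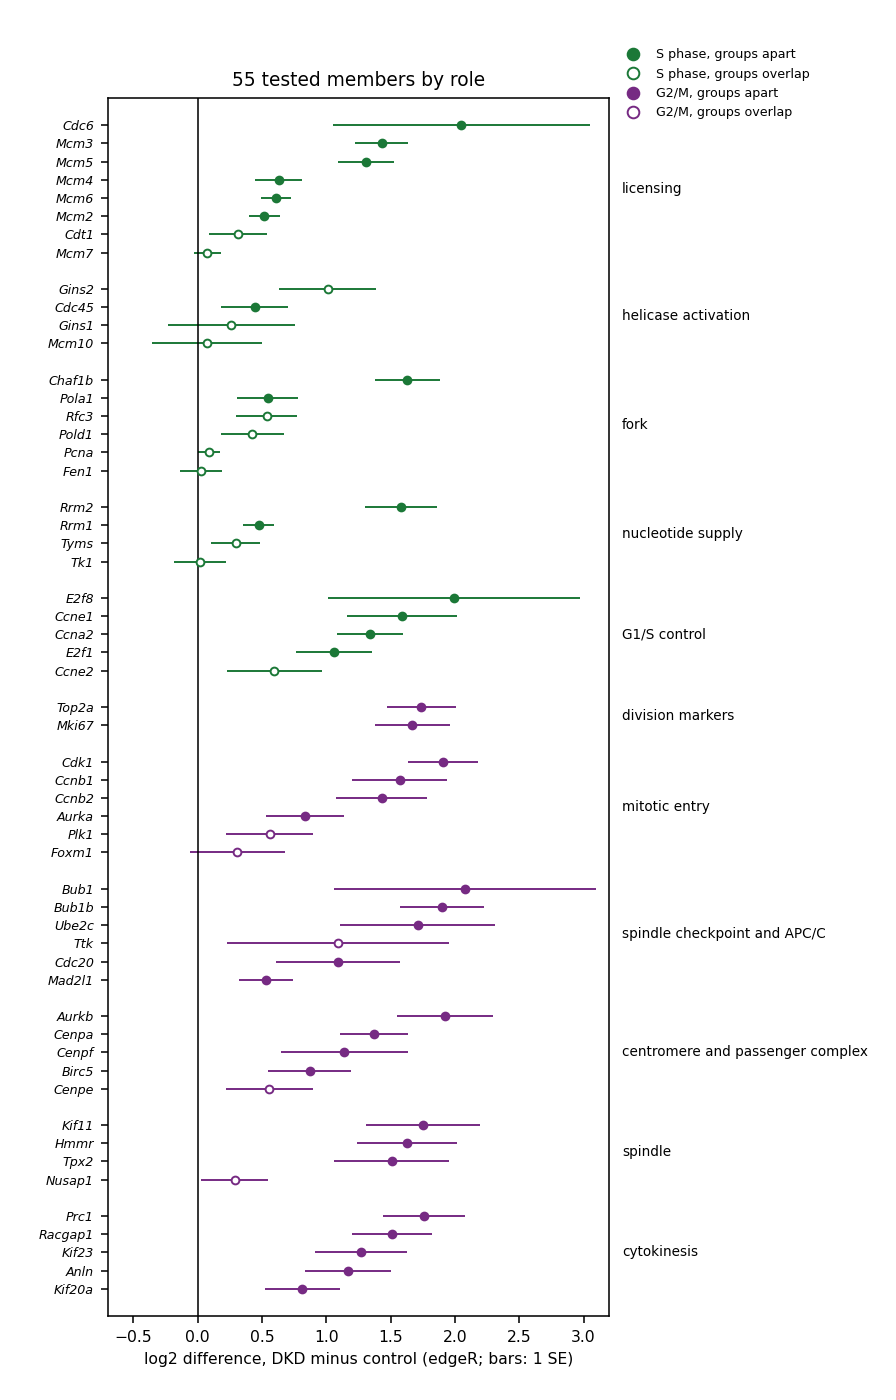
Fitted log2 difference, DKD minus control, with bars of 1 SE (horizontal axis) for the 55 members tested, grouped by role, filled points being genes whose groups do not overlap. All 55 lie above 0, from 0.02 to 2.08, and the S phase genes near 0 include Mcm7, Mcm10, Pcna, Fen1 and Tk1.

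Among the 8 genes that license origins, 6 were separated, with a median log2 difference of 0.62. Mcm3 was at 2.51, 2.65 and 3.23 CPM in the control libraries and at 8.34, 6.22 and 8.02 CPM in the DKD libraries, each in the order of replicates 1 to 3, as for all genes below. The difference was 1.43 ± 0.21 (log2, SE; edgeR adjusted p = 0.103), and the lowest DKD library was well above the highest control. Mcm5, whose promoter is printed above with Mcm3's, was at 3.97, 3.12 and 3.84 CPM in control and 11.2, 7.31 and 8.53 CPM in DKD libraries. It differed by 1.31 ± 0.22 (edgeR adjusted p = 0.103), again with no overlap. Mcm2, Mcm4 and Mcm6 were separated at smaller differences of 0.52 ± 0.12, 0.63 ± 0.18 and 0.61 ± 0.12. Mcm7, the other subunit of the same ring, read 21.2, 20.0 and 20.8 CPM in control and 23.2, 22.5 and 19.5 CPM in DKD libraries. Its groups overlapped, and the difference was 0.07 ± 0.11 (edgeR adjusted p = 0.727). Cdc6, which loads the ring, had the largest difference of the licensing genes at 2.05 ± 1.00, with 0.286, 0 and 0.409 CPM in control and 0.788, 1.18 and 0.931 CPM in DKD libraries. The control values rest on 17, 0 and 29 counts, and its edgeR adjusted p was 0.309. Cdt1, its partner in loading, overlapped between groups at 3.74, 5.88 and 4.85 CPM in control and 6.41, 6.57 and 5.02 CPM in DKD libraries.

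Because the MCM2 to MCM7 proteins form a ring with 1 copy of each, their transcript levels were also set beside each other per length. The length is that of all annotated exons of a gene merged, so the order between genes depends on the annotation. In CPM per kilobase of exon, the control means were 4.66 for Mcm7, 4.02 for Mcm6, 1.68 for Mcm4, 1.67 for Mcm2, 0.912 for Mcm5 and 0.745 for Mcm3. The DKD means were 4.91 for Mcm7, 6.14 for Mcm6, 2.60 for Mcm4, 2.40 for Mcm2, 2.26 for Mcm5 and 2.01 for Mcm3. The highest mean was 6.26 times the lowest in control and 3.05 times the lowest in DKD libraries. Mcm3 and Mcm5, the lowest in control, had the largest differences of the 6.

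Of the 4 genes that switch the helicase on, 1 was separated and the median log2 difference was 0.35, or 0.12 without DKD replicate 1. Cdc45, a helicase subunit, was the separated gene, with 1.92, 1.71 and 1.68 CPM in control and 3.03, 2.08 and 2.11 CPM in DKD libraries (0.44 ± 0.26, edgeR adjusted p = 0.384, and 0.23 without DKD replicate 1). Gins2, a subunit of the GINS complex, had the largest difference, at 7.22, 3.88 and 3.46 CPM in control and 8.44, 14.0 and 6.83 CPM in DKD libraries. Its groups overlapped through control replicate 1, and 67.3% of its exon length is shared with the annotated exons of Gse1. Gins1, of the same complex, read 0.421, 1.20 and 1.47 CPM in control and 1.63, 0.960 and 1.12 CPM in DKD libraries. Mcm10, which helps to activate the helicase, had the smallest difference, 0.08 ± 0.43, from 7.98, 7.55 and 4.61 CPM in control and 11.1, 6.68 and 3.42 CPM in DKD libraries. Both groups spread widely there, and the lowest library of all was DKD replicate 3.

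At the fork, 2 of 6 genes were separated, with a median log2 difference of 0.48. Chaf1b, a subunit of the chromatin assembly factor CAF-1 that places histones on new DNA, was at 0.875, 0.788 and 1.06 CPM in control and 2.88, 2.92 and 2.62 CPM in DKD libraries. This difference of 1.63 ± 0.25 (edgeR adjusted p = 0.103) was the largest of the group, and the 3 DKD libraries were close to each other. Pola1, the catalytic subunit of the priming polymerase, was the other separated gene, at 0.54 ± 0.24, or 0.33 without DKD replicate 1. Pcna was the most abundant member per length in both groups, at 15.2 and 16.2 CPM per kilobase. Its CPM values were 39.4, 34.2 and 36.0 in control and 39.7, 38.1 and 38.7 in DKD libraries, a difference of 0.09 ± 0.09 (edgeR adjusted p = 0.609) with overlapping groups. Fen1, the flap endonuclease of Okazaki fragment maturation, read 6.92, 6.61 and 8.27 CPM in control and 7.60, 6.80 and 7.76 CPM in DKD libraries. Its difference of 0.02 ± 0.16 was the smallest at the fork, its highest library was a control, and 78.8% of its exon length overlaps other annotated genes. Pold1, a polymerase subunit, also overlapped, with 5.00, 7.18 and 8.55 CPM in control and 7.47, 9.40 and 10.9 CPM in DKD libraries (0.42 ± 0.24). Rfc3, of the clamp loader, had 3.65, 5.58 and 3.37 CPM in control and 6.30, 5.52 and 6.47 CPM in DKD libraries (0.54 ± 0.24), where control replicate 2 lay just above the lowest DKD library.

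In nucleotide supply, 2 of 4 genes were separated, and both encode ribonucleotide reductase. Rrm2, its regulated small subunit, was at 2.17, 3.05 and 3.02 CPM in control and 11.1, 6.01 and 7.58 CPM in DKD libraries. The lowest DKD library lay well above the highest control, with a difference of 1.58 ± 0.28 (edgeR adjusted p = 0.103). Rrm1, the large subunit, differed by 0.47 ± 0.12, from 14.8, 15.5 and 13.2 CPM in control to 21.2, 18.1 and 21.1 CPM in DKD libraries. Per kilobase of exon the control mean was 1.32 CPM for Rrm1 and 0.991 CPM for Rrm2. The DKD mean was 1.83 CPM for Rrm1 and 2.97 CPM for Rrm2. That turn in order rests on merged exon lengths of 11012 bases for Rrm1 and 2771 bases for Rrm2. In CPM the Rrm1 mean was higher in both groups, at 14.5 against 2.75 in control and 20.2 against 8.23 in DKD libraries. Tyms, which makes thymidylate, overlapped at 0.30 ± 0.19, with 13.3, 8.89 and 9.55 CPM in control and 11.5, 14.3 and 13.2 CPM in DKD libraries. Tk1, which salvages thymidine, had 9.39, 11.8 and 9.42 CPM in control and 12.8, 8.36 and 9.83 CPM in DKD libraries, a difference of 0.02 ± 0.20 (edgeR adjusted p = 0.968).

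Among the 5 regulators of S phase entry, 4 were separated, with a median log2 difference of 1.34. Ccna2, cyclin A2, was at 1.80, 2.08 and 2.26 CPM in control and 6.62, 3.95 and 4.93 CPM in DKD libraries (1.34 ± 0.26, edgeR adjusted p = 0.103). Cyclin E genes differed from each other. Ccne1 was separated at 0.269, 0.333 and 0.339 CPM in control, from 16, 22 and 24 counts, and 1.39, 0.779 and 0.672 CPM in DKD libraries. Ccne2 overlapped, with 1.31, 1.18 and 2.79 CPM in control and 2.78, 2.60 and 2.62 CPM in DKD libraries, its highest value being in control replicate 3. E2f1, an activator of S phase genes, differed by 1.06 ± 0.29 and was separated. E2f8, a repressor of the same family that is itself made in S phase, had the largest difference of the group, 1.99 ± 0.98 (edgeR adjusted p = 0.312), from 0, 0.288 and 0.310 CPM in control and 1.08, 0.688 and 0.648 CPM in DKD libraries. Its control values rest on 0, 19 and 22 counts.

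Mki67 and Top2a, used widely as markers of dividing cells, were separated and lay above the median of either phase. Mki67, which encodes the antigen Ki-67, was at 2.24, 2.86 and 1.90 CPM in control and 10.1, 5.48 and 6.76 CPM in DKD libraries. Top2a, topoisomerase II alpha, was at 1.85, 1.92 and 2.29 CPM in control and 9.14, 5.14 and 6.01 CPM in DKD libraries. The differences were 1.67 ± 0.29 and 1.74 ± 0.27, each with an edgeR adjusted p of 0.103. DKD replicate 1 was the highest library for both, and the other DKD libraries also stood above all controls.

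Of the 7 genes of mitotic entry, 6 were tested and 4 were separated, with a median log2 difference of 1.13. Cdk1, the kinase of mitotic entry, had the largest difference, from 0.623, 0.727 and 0.762 CPM in control to 3.14, 2.22 and 2.59 CPM in DKD libraries. It differed by 1.91 ± 0.27 (edgeR adjusted p = 0.103), and every DKD library was far above every control. Its partners Ccnb1 and Ccnb2 differed by 1.57 ± 0.37 and 1.43 ± 0.36, and both were separated, although an annotated pseudogene holds 93.8% as many counts as Ccnb2 itself and reads may be split between them. Aurka, a centrosome kinase, was separated at 0.84 ± 0.30. Plk1, a mitotic kinase, overlapped at 0.808, 0.894 and 0.973 CPM in control and 1.76, 0.921 and 1.27 CPM in DKD libraries, a difference of 0.56 ± 0.34 and of 0.29 without DKD replicate 1. Foxm1, a transcription factor of G2/M genes, had the smallest difference of the group at 0.31 ± 0.37 (edgeR adjusted p = 0.674), with 1.78, 2.14 and 2.27 CPM in control and 3.94, 2.15 and 1.58 CPM in DKD libraries. Only DKD replicate 1 lay above the Foxm1 controls, and without that library the fitted difference was -0.16. Cdc25c, the phosphatase that activates CDK1, had 0, 9 and 0 counts in control and 20, 34 and 5 counts in DKD libraries and was not tested.

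In the spindle checkpoint and the anaphase-promoting complex, 5 of 6 genes were separated, with a median log2 difference of 1.40, or 0.83 without DKD replicate 1. Bub1b, which encodes the checkpoint protein BubR1, was at 0.858, 0.439 and 0.719 CPM in control and 2.78, 2.26 and 2.51 CPM in DKD libraries (1.90 ± 0.33, edgeR adjusted p = 0.103). The kinase gene Bub1 had the largest difference of all members, 2.08 ± 1.02 (edgeR adjusted p = 0.312), but its control values of 0.219, 0 and 0.451 CPM rest on 13, 0 and 32 counts. Its DKD libraries, at 1.13, 0.714 and 1.01 CPM, were all above them. Mad2l1, the checkpoint protein MAD2, had the smallest difference at 0.53 ± 0.21 and was separated, with 4.16, 3.33 and 2.84 CPM in control and 4.68, 5.14 and 5.11 CPM in DKD libraries. Cdc20 and Ube2c, which act with the complex, were separated at 1.09 ± 0.48 and 1.71 ± 0.60, in both cases with DKD replicate 1 far above the other libraries, and at 0.60 and 0.92 without it. Ube2c, for example, was at 4.03 CPM there and at 1.41 and 1.15 CPM in DKD replicates 2 and 3. Ttk, a checkpoint kinase, overlapped at 0.135, 0.273 and 0.169 CPM in control and 0.591, 0.0519 and 0.589 CPM in DKD libraries. Its lowest library was DKD replicate 2.

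Among 5 centromere and chromosomal passenger genes, 4 were separated, with a median log2 difference of 1.14, or 0.59 without DKD replicate 1. Aurkb, the passenger kinase, was at 0.404, 0.485 and 0.423 CPM in control and 2.39, 1.32 and 1.26 CPM in DKD libraries. That difference of 1.92 ± 0.37 (edgeR adjusted p = 0.103) was the largest of the group. Cenpa, the histone H3 variant of centromeres, differed by 1.37 ± 0.26 (edgeR adjusted p = 0.103), and here DKD replicate 3 was the highest library at 3.25 CPM. Birc5 (survivin) and Cenpf were separated at 0.87 ± 0.32 and 1.14 ± 0.49, and Cenpf was at 0.52 without DKD replicate 1. Cenpe, a kinetochore motor, overlapped and had the smallest difference of the group, 0.56 ± 0.34, from 1.92, 1.41 and 2.13 CPM in control and 3.85, 2.14 and 2.05 CPM in DKD libraries, or 0.19 without DKD replicate 1.

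Of the 4 spindle genes, 3 were separated, with a median log2 difference of 1.57. Kif11, the motor that pushes spindle poles apart, was at 0.724, 0.652 and 1.42 CPM in control and 4.69, 2.23 and 2.52 CPM in DKD libraries (1.75 ± 0.44, edgeR adjusted p = 0.133). Tpx2 and Hmmr, both involved in spindle assembly, were separated at 1.51 ± 0.45 and 1.63 ± 0.39. Nusap1, which bundles microtubules, overlapped at 5.05, 5.23 and 3.17 CPM in control and 6.55, 5.44 and 4.42 CPM in DKD libraries, a difference of 0.29 ± 0.26 and of 0.13 without DKD replicate 1. It was the smallest among the G2/M genes.

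All 5 genes of cytokinesis were separated, with a median log2 difference of 1.27. Prc1, which bundles microtubules between separating chromosomes, had the largest difference, from 0.724, 1.44 and 0.875 CPM in control to 3.59, 3.21 and 3.52 CPM in DKD libraries. It differed by 1.76 ± 0.32 (edgeR adjusted p = 0.103), and its 3 DKD libraries lay close together. Racgap1 and Kif23, which form the centralspindlin complex, differed by 1.51 ± 0.31 and 1.27 ± 0.36, and Anln (anillin) by 1.17 ± 0.33. Kif20a, a kinesin of the midzone, had the smallest difference at 0.82 ± 0.29, from 1.62, 2.30 and 1.55 CPM in control to 4.02, 2.45 and 3.16 CPM in DKD libraries. Of its exon length, 29.3% overlaps the annotated exons of Cdc23.

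**Figure D3:**
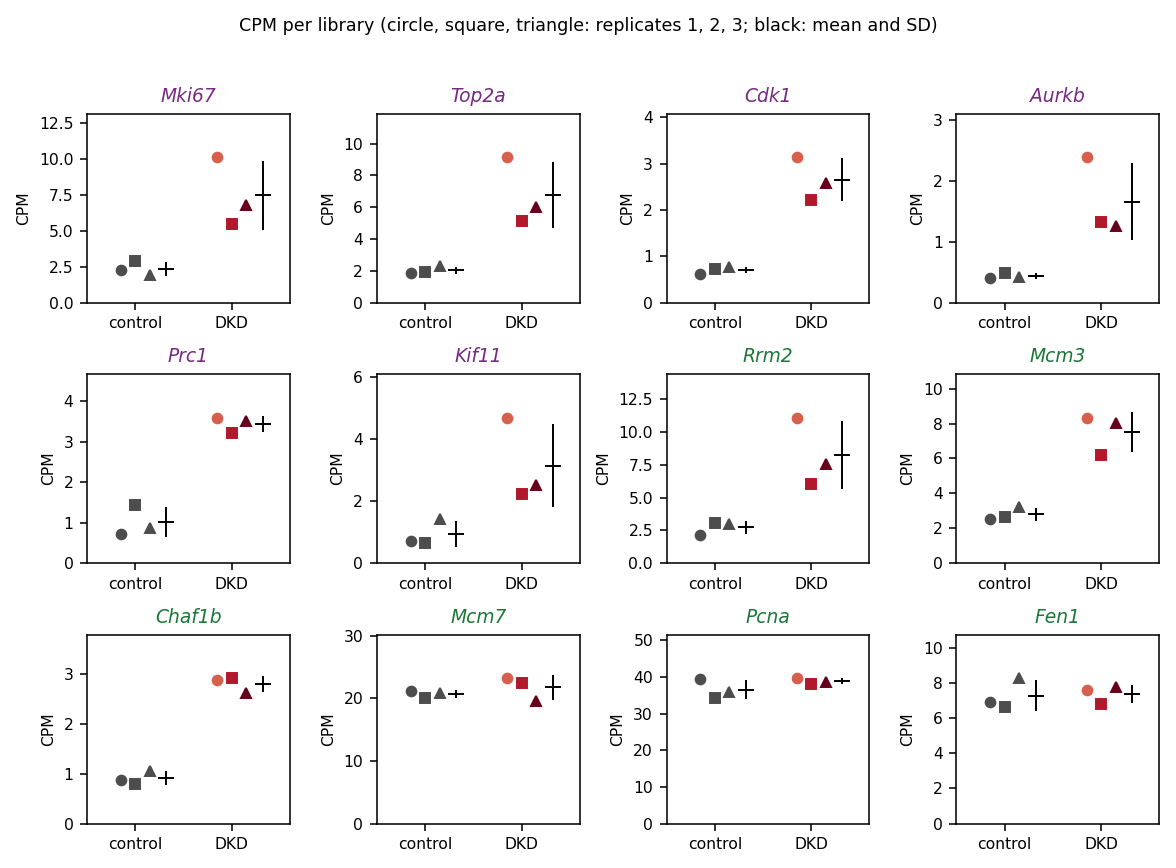
CPM (vertical axis, from 0) in the 3 control and 3 DKD libraries for 12 members, with a point for each library and the mean with its SD in black. Mki67, Top2a, Cdk1, Aurkb, Prc1, Kif11, Rrm2, Mcm3 and Chaf1b have every DKD library above every control library, while Mcm7, Pcna and Fen1 overlap.

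Set against each other, G2/M genes differed by more than S phase genes. The median log2 difference was 1.40 over the 28 G2/M genes tested (range 0.29 to 2.08) and 0.54 over the 27 S phase genes (range 0.02 to 2.05). Of the G2/M genes 23 (82.1%) were separated, and of the S phase genes 15 (55.6%), against 13.8% of all genes upward. Without DKD replicate 1 they were 23 and 16, against a larger share of 27.4% of all genes. A difference above 1, that is above 2-fold, was fitted for 20 G2/M and 10 S phase genes, or 15 and 9 without DKD replicate 1. All 5 members below 0.2, Mcm7, Mcm10, Pcna, Fen1 and Tk1, were S phase genes. The shares of all genes above 1 and below 0.2 were not counted. At an unadjusted p under 0.05 in edgeR there were 20 G2/M and 12 S phase genes, all higher, against 12.2% of all genes higher. The difference between the phases has no test of its own here.

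Per library, the mean log2 CPM of the S phase genes, taken relative to the control mean, was -0.13, -0.01 and 0.14 in control and 0.98, 0.73 and 0.72 in DKD libraries. For the G2/M genes it was -0.12, 0.07 and 0.05 in control and 1.69, 0.93 and 1.15 in DKD libraries. All 3 DKD libraries thus lay above all controls for either phase, while over all genes the same measure ran from -0.03 to 0.02 in control and from 0.10 to 0.21 in DKD libraries. The G2/M mean minus the S mean was 0.01, 0.08 and -0.09 in control and 0.71, 0.20 and 0.43 in DKD libraries, which gives 0.45 ± 0.25 in DKD (SD, n = 3). The excess of G2/M over S phase genes was therefore positive in each DKD library, and between 0.20 and 0.71 in size. Without DKD replicate 1 the medians were 1.13 for G2/M and 0.54 for S phase genes, with 51 of 55 members fitted higher.

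**Figure D4:**
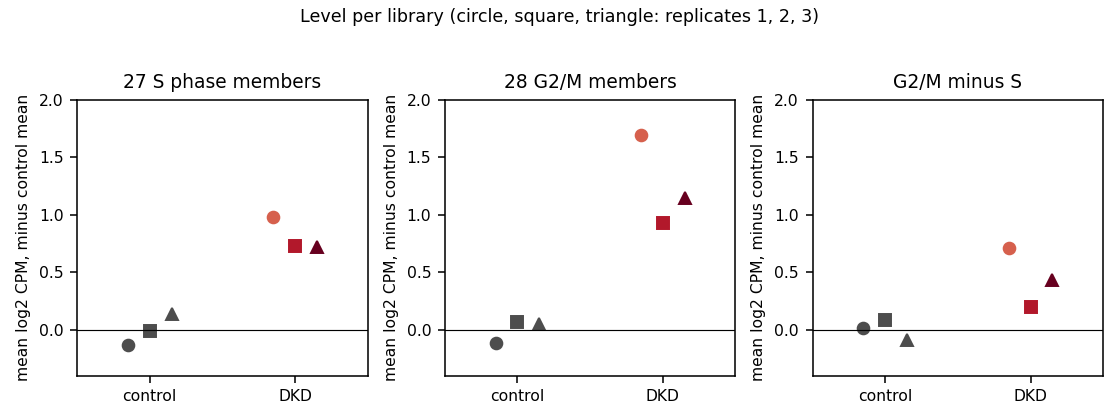
Mean log2 CPM per library relative to the control mean for the S phase members, the G2/M members and the difference of both, with a point for each library. S phase genes reach 0.72 to 0.98 and G2/M genes 0.93 to 1.69 in the DKD libraries.

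The phases also differ in abundance, and the difference between them moved with it. Per kilobase of exon, the median control level was 0.991 CPM for S phase and 0.206 CPM for G2/M genes. By mean CPM over the 6 libraries, the 28 less abundant members had a median log2 difference of 1.47 and the 27 more abundant ones 0.54. Among the less abundant members, the 7 S phase genes had a median of 1.59 and the 21 G2/M genes 1.43. Among the more abundant members, the 20 S phase genes had a median of 0.53 and the 7 G2/M genes 1.27. The order of the phases thus turned among the less abundant genes. Over all genes tested, those at least as abundant as the upper members (12642 genes) had a median of -0.04 and those below (6555 genes) a median of 0.34, with 67.9% of the latter fitted higher. The part of abundance in the difference between the phases was not tested.

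**Figure D5:**
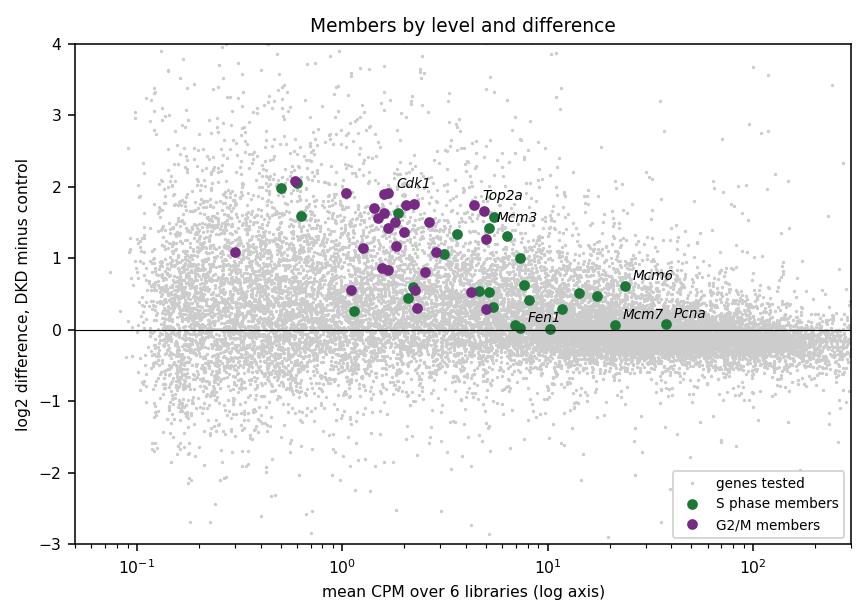
Log2 difference, DKD minus control (vertical axis), against the mean CPM over the 6 libraries on a log axis (horizontal axis) for S phase members, G2/M members and the genes tested (grey, those within the axes). Most of the more abundant members are S phase genes, with a median of 0.53 there, and most of the less abundant ones are G2/M genes, with a median of 1.43 there.

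By promoter letters, the 12 S phase genes with the E2F letters had a median log2 difference of 0.57 and the 10 without them 0.37. The 19 G2/M genes with the CHR letters had a median of 1.51, with 17 separated, and the 5 without them 0.56, with 3 separated. Among S phase genes the CHR letters went the other way, with a median of 0.48 in the 6 genes that hold them and 0.57 in the 16 that do not. The 3 G2/M genes with the E2F letters had a median of 1.67 and the 21 without them 1.27. A split by CCAAT gave a similar gap among G2/M genes, with 1.54 in the 20 that hold it (17 separated) and 0.70 in the 4 that do not (3 separated). Birc5, Mad2l1 and Nusap1 lack both CHR and CCAAT, so the splits by these letters largely rest on the same genes. Of all genes tested, 13.8% were separated upward. Among S phase genes it gave 0.54 in 13 genes with CCAAT and 0.42 in 9 without. The part of abundance in these splits was not tested. Mcm3, Chaf1b and Mcm5, whose windows are printed above, are among the S phase genes with the E2F letters. Cdk1, Top2a and Bub1b are among the G2/M genes with the CHR letters, and Pcna is among the S phase genes with neither. These windows, Pcna's aside, were picked by p-value, and other S phase genes went the other way. Mcm7 and Cdt1 hold the E2F letters at differences of 0.07 and 0.31. Ccne1, Rrm2 and E2f1 hold neither set of letters at 1.59, 1.58 and 1.06.

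DKD replicate 1 was the highest of the 6 libraries for 41 of 55 members (74.5%), against 14.3% of all genes. This held for 25 of 28 G2/M genes (89.3%) and 16 of 27 S phase genes (59.3%). DKD replicate 2 was highest for 7 members, DKD replicate 3 for 5, and a control for 2, Fen1 and Ccne2. The library with the highest cycle gene levels was not the one with the highest immune or injury markers. Summed markers of B and plasma cells were at 27.5 to 53.8 CPM in control libraries and 10.1, 515 and 262 CPM in DKD replicates 1 to 3. For T and NK cells they were at 7.83 to 9.94 CPM in control and 8.35, 26.0 and 33.7 CPM in DKD libraries. Macrophage markers summed to 142 to 168 CPM in control and 146, 274 and 339 CPM in DKD libraries. Of that list Csf1r alone was highest in DKD replicate 1, where it made up 89.1 CPM of the sum. Markers of injured tubule summed to 994 to 1070 CPM in control and 1370, 3020 and 3400 CPM in DKD libraries. In DKD replicate 1 the summed hepatocyte markers given above were highest. So were the summed erythroid markers (9 of 10 listed were matched), at 947 CPM against 377 to 611 CPM elsewhere. Most of that erythroid sum came from the globin genes Hba-a1, Hba-a2, Hbb-bs and Hbb-bt, at 272, 193, 280 and 134 CPM. Klf1 was highest in control replicate 1 and Epor in DKD replicate 2, and the other matched erythroid genes in DKD replicate 1. Neutrophil markers were at 1.54 to 4.39 CPM in all libraries, and 7 of their 10 genes, Mpo, Elane and Ly6g among them, were at 0 in at least 1 library. Pax5 of the B cell list was at 0 in control replicate 1, and no marker of T and NK cells, macrophages, endothelium or stroma was. Endothelial markers summed to 320 to 357 CPM in control and 362 to 459 CPM in DKD libraries, and stromal markers to 108 to 152 CPM in control and 231 to 332 CPM in DKD libraries. The part of these cell types in the members' levels was not tested.

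Other genes of the same processes were read from lists made by textbook role, with earlier results of these data known. In the main edgeR test none of them was called either. Of 59 other mitosis genes, 55 were fitted higher and 41 (69.5%) were separated upward, against 13.8% of all genes, with a median log2 difference of 1.20. Without DKD replicate 1, 45 were separated upward and 2 downward, against 27.4% and 23.6% of all genes. DESeq2 called 19 of them higher, weighted limma-voom 24 higher and 1 lower, and edgeR without DKD replicate 1 called 12 higher and 1 lower, against the 6.25%, 9.94% and 9.67% of all genes called higher in these fits. Melk, a mitotic kinase, was at 0.101, 0.106 and 0.113 CPM in control and 0.893, 0.688 and 0.648 CPM in DKD libraries (2.78 ± 0.44, edgeR adjusted p = 0.103). Its control values rest on 6, 7 and 8 counts. Kif18b, a kinesin of the spindle, and Ckap2, a microtubule-associated protein, were also separated. Kif18b was at 0.118, 0.182 and 0.127 CPM in control, from 7, 12 and 9 counts, and 0.880, 0.584 and 0.778 CPM in DKD libraries (2.38 ± 0.45). Ckap2 was at 0.656, 0.530 and 0.621 CPM in control and 2.18, 2.06 and 1.70 CPM in DKD libraries (1.71 ± 0.28). Only 4 of the 59 were fitted lower. Pttg1 (securin) and Cks2, a CDK subunit, overlapped between groups. Pttg1 was at 43.0, 37.4 and 32.2 CPM in control and 37.1, 38.3 and 35.7 CPM in DKD libraries (-0.02 ± 0.12). Cks2 was at 22.9, 18.0 and 20.0 CPM in control and 20.4, 16.8 and 17.2 CPM in DKD libraries (-0.16 ± 0.13). Kif20b, a kinesin related to Kif20a, was at 15.7, 27.6 and 17.8 CPM in control and 43.1, 5.92 and 4.52 CPM in DKD libraries, so that DKD replicate 1 was the highest library and the other DKD libraries the lowest. Its fitted difference was -0.19 ± 0.91, and -1.97 without DKD replicate 1.

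Of 50 other replication genes, 40 were fitted higher, 19 (38.0%) were separated upward and 2 (4%) downward, against 13.8% and 11.5% of all genes, with a median log2 difference of 0.24. Without DKD replicate 1, 22 were separated upward and 4 downward, against 27.4% and 23.6% of all genes. Here DESeq2 called 9 higher, weighted limma-voom 11 higher and 2 lower, and edgeR without DKD replicate 1 called 4 higher and 1 lower. Of all genes, these fits called 6.25%, 9.94% and 9.67% higher and 2.90%, 7.75% and 5.84% lower. The 4 of 50 lie near the 9.67% of all genes called higher in that last fit. Uhrf1, which guides maintenance methylation of new DNA, was at 1.21, 0.864 and 1.92 CPM in control and 4.35, 4.80 and 6.23 CPM in DKD libraries (1.94 ± 0.34, edgeR adjusted p = 0.103). Chaf1a, the partner of Chaf1b in CAF-1, was at 6.61, 6.03 and 5.18 CPM in control and 9.97, 10.3 and 10.3 CPM in DKD libraries (0.78 ± 0.15), and Lig1, the ligase of Okazaki fragments, was at 4.54, 3.53 and 3.99 CPM in control and 6.84, 8.11 and 6.14 CPM in DKD libraries (0.81 ± 0.19). All 3 were separated. Among the lower fitted values with the smallest p were those of Orc3 and Orc2, of the origin recognition complex. Orc3 was at 37.4, 45.2 and 39.9 CPM in control and 36.1, 33.4 and 33.4 CPM in DKD libraries (-0.25 ± 0.10). Orc2 was at 23.1, 26.8 and 23.9 CPM in control and 22.7, 19.3 and 21.6 CPM in DKD libraries (-0.21 ± 0.11), and both were separated downward by a narrow gap. As among the members, the mitosis list had the larger median and the larger separated share. The part of abundance in this was not tested.

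Of 21 genes of G1 control, 20 were tested, and DKD was fitted higher for 13 and lower for 7. Separated upward were 2 (10%) and downward 4 (20%), against 13.8% and 11.5% of all genes, with a median log2 difference of 0.10. Without DKD replicate 1 they were 7 and 5, against 27.4% and 23.6% of all genes. Cdkn2a was not tested. Cdkn1a, which encodes the cyclin-dependent kinase inhibitor p21, was at 2.10, 2.97 and 2.93 CPM in control and 3.17, 81.1 and 95.6 CPM in DKD libraries. DKD replicates 2 and 3 were far above the controls and DKD replicate 1, the highest library for most members, was only just above them. The fitted difference was 4.49 ± 1.22 (edgeR adjusted p = 0.161), and the edgeR adjusted p without DKD replicate 1 was 7.86e-05. Ccnd2, a D-type cyclin, differed by 1.03 ± 0.33, with 6.70, 6.79 and 9.68 CPM in control and 9.30, 15.3 and 22.8 CPM in DKD libraries, which overlapped. Rb1, the retinoblastoma protein, was at 29.6, 37.1 and 34.8 CPM in control and 38.8, 42.3 and 38.6 CPM in DKD libraries (0.24 ± 0.11). E2f5 and Rbl2 (p130), which act together in repressor complexes of resting cells, were separated downward. E2f5 was at 38.0, 40.6 and 33.5 CPM in control and 31.1, 24.2 and 22.4 CPM in DKD libraries (-0.53 ± 0.15, edgeR adjusted p = 0.146). Rbl2 was at 85.3, 97.0 and 91.1 CPM in control and 77.0, 71.5 and 70.0 CPM in DKD libraries (-0.32 ± 0.09, edgeR adjusted p = 0.149). E2f6, a repressor of the E2F family, was at 27.5, 27.1 and 31.2 CPM in control and 21.5, 21.7 and 23.6 CPM in DKD libraries (-0.36 ± 0.10), also separated downward.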

How the data were processed

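RNA of whole kidneys was measured in 3 control and 3 DKD libraries, from poly(A)-selected, strand-marked libraries per the labels' protocols. The authors deposited 1 table of raw read counts per gene. The build GRCm39 and the tools fastp, HISAT2, StringTie and edgeR are named in the submitters' processing notes. The sources used here do not give their versions or roles, the annotation, or whether counting used strand, so reads of overlapping genes, antisense genes and pseudogenes could not be told apart. Symbols came from the GRCm38 reference and matched 55141 of 55401 IDs. Unmatched IDs took up to 0.00963% of a library's counts, and 25471 IDs had no count. Exon lengths come from the same reference and merge all annotated exons of a gene, which can exceed the length of a single transcript.

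The deposited counts were tested in R 4.3.3 with the robust quasi-likelihood test of edgeR 4.0.16 (two-sided, TMM factors, filterByExpr, Benjamini-Hochberg adjustment over 19197 genes, threshold 0.05). Fitted differences are log2, with standard errors from the same statistic. The mean log2 CPM per library used a prior count of 2. Alternatives were DESeq2 1.42.0, limma-voom (limma 3.58.1) with and without quality weights, other scalings and filters, a replicate block and leaving out each library. The scripts were tested on simulated data, where DESeq2 made 67 false calls, edgeR 9 and weighted limma-voom 5. Of 67 genes changed 2-fold there, DESeq2 recovered 59.7%, edgeR 35.8% and weighted limma-voom 20.9%. For 1.5-fold changes DESeq2 recovered 22.4% and edgeR 5.97%, so a gene that edgeR did not call may still differ. No simulated library was made to stand apart as DKD replicate 1 does.

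Members, lists and roles were chosen with earlier results of these data known. Named with values per library were Mki67, Top2a, Pcna, Cdk1, the largest and the smallest difference in each role, every member whose groups overlap, members not tested, and up to 3 genes of smallest p in each direction of a pathway list. A further gene that this rule takes is not reported here. Members named beside these were chosen after their values were seen. No pair of libraries of a group agreed within sampling noise, so each was counted as a replicate, although separate preparations of one animal would not show in this check. The replicate numbers did not pair the libraries, as the closing section gives.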

Additional observations from a re-analysis of the deposited data

How the results depend on the processing

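The number of called genes depended on the test and on 1 library. Over all genes it was 0, but 1749 with DESeq2, 3397 with weighted limma-voom, 4 with no low count filter, and 0 to 3101 when each library was left out, with 3101 without DKD replicate 1 and 7 without control replicate 1. Members called were 26 with DESeq2, 25 with weighted limma-voom, and 0 to 17 with a library left out, 17 being without DKD replicate 1. Of other replication genes, DESeq2 called 9, weighted limma-voom 13, and the leave-one-out fits 0 to 5. Of other mitosis genes they called 19, 25 and 0 to 13, and of G1 genes 5, 4 and 0 to 5. The excess of the G2/M over the S phase median was 0.85, and it was 0.57 with weighted limma-voom and 0.59 to 1.02 with a library left out. Among the less abundant members, a comparison added after seeing the data, it was -0.16, and the S phase median was 1.59. Library size alone moved the median of all genes from 0.02 to 0.17, the S phase median to 0.69 and the G2/M median to 1.54.

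Of 48 single-gene values, 8 changed sign in some fit. Weighted limma-voom gave -0.17 for Mcm10, -0.12 for Gins1, -0.02 for Fen1, -0.19 for Tk1, -0.08 for Foxm1, -0.42 for Ttk and 0.06 for Pttg1. Unweighted limma-voom gave -0.05 for Mcm10, and library size alone gave 0.14 for Pttg1. With a library left out, the values ran from -0.42 to 0.41 for Mcm10, -0.11 to 0.61 for Gins1, -0.04 to 0.13 for Fen1, -0.17 to 0.15 for Tk1, -0.16 to 0.56 for Foxm1, -1.97 to 0.27 for Kif20b and -0.12 to 0.09 for Pttg1. The cause was not tested. Across weighted limma-voom, DESeq2 and edgeR without DKD replicate 1, 62 single-gene results passed the threshold that the edgeR test did not reach (24, 19 and 19).

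With a replicate block, 0 genes and 0 members were called, the medians were 0.57 (S phase) and 1.38 (G2/M), their difference was 0.81, and Mcm10 was at -0.04. The deviations of same-numbered libraries correlated at 0.03, 0.02 and 0.03 over 19197 genes, so the numbers were not taken to pair them. At the depth of these libraries, Cdc6, E2f8, Bub1, Ttk, Cdc25c, Ccne1, Melk and Kif18b are among the genes that rest on few counts.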
